A study of Mus musculus with 2 samples.

Results

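The 8 genes described here are Rfx1, Rfx2, Rfx3, Rfx5, Rfx6, Rfx7, Insm1 and Glis3, taken by gene symbol from the 55487 genes listed for each library. They were measured by RNA sequencing of pancreatic islet cells sorted from mutant mice 2 months old, in 2 libraries that form 1 group. Both libraries carried MytF/F, Myt2F/F and Myt3F/F together with RipCre, that is, floxed alleles of 3 zinc-finger genes (Myt1, Myt1l and St18 in the tables) and a Cre recombinase driven by the rat insulin promoter. The label gives the sex as pooled male and female, and the Xist values given below go against that label for library 1. The study asked which genes of beta cells depend on the Myt factors under normal blood glucose. Control cells were not analysed here, so no value below compares mutant with control cells. The labels call the library numbered 2 a duplicate and do not say whether other mice were used. Xist and acinar markers differed several-fold or more between the libraries, as given below, so the libraries did not hold the same mix of RNA, and a p-value measures only the reads of these libraries. The gate used for sorting is not given in the sources used here.

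RFX proteins are transcription factors that share a winged-helix DNA-binding domain and bind the X-box, a DNA element built from paired short words. RFX6 and RFX3 act in the formation and function of islet endocrine cells, RFX3 and RFX2 also act on genes of cilia, and RFX5 is the DNA-binding subunit of the complex on MHC class II promoters. INSM1 is a zinc-finger factor of endocrine and neuronal cells that recruits the LSD1 corepressor through its SNAG domain, and GLIS3 is a Krüppel-like zinc-finger factor that acts on the insulin genes.

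Promoter sequence of the RFX members is shown first, because RFX proteins bind X-box words and the RFX transcripts are the subject of the levels below. The RefSeq promoter table (GRCm38.p6), which spans 250 bases before to 50 bases after a transcript start, held 7 of the 8 genes, without Insm1. The X-box hexamers searched on both strands were AGCAAC and AGTAAC as well as GGCAAC and GGTAAC. At least 1 hexamer was found in the promoters of Rfx1, Rfx2, Rfx3, Rfx5 and Rfx6, and none in those of Rfx7 and Glis3. The windows of 30 bases with most hexamers read, 5′ to 3′ on the gene's strand with hexamers in capitals, as follows.
Rfx1: gggtgggtAGCAACaGTTGCCccggtgagg
Rfx2: tgcagcttGGTAACcGTTGCCgggcgcaac
Rfx3: tgagttatAGCAACcGTTGCCttgtgaatc
Rfx5: caatcatattctGTTACCaggcagactttc
Rfx6: atAGCAACatttggtgacttctGGCAACtt

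These windows lie at chr8:84066822-84066851 on the plus strand (Rfx1), chr17:56831110-56831139 on the minus strand (Rfx2), chr19:28011121-28011150 on the minus strand (Rfx3), chr3:94953996-94954025 on the plus strand (Rfx5) and chr10:51685513-51685542 on the plus strand (Rfx6). The Rfx1 window spans the transcript start, the Rfx2 and Rfx5 windows lie before it, the Rfx3 window lies after it, and the Rfx6 window spans a RefSeq start that lies 7762 bases inside the GENCODE gene. In Rfx1, Rfx2 and Rfx3 a hexamer was followed, after a single base, by the reverse complement of a hexamer. Such outward-facing words at most 3 bases apart occurred in 32 of 32851 mouse promoters in the table, or 0.0974%, and in 3 of the 7 promoters here. This arrangement was searched for after these promoters had been read, so its count is a description. A single hexamer was common, in 35.8% of all promoters. The inward-facing arrangement of the classical X-box occurred in 293 promoters, or 0.892%, and in none of these 7. It was also found in none of 7 promoters of MHC class II genes, where the RFX5 complex acts. This search for exact hexamers therefore cannot show that an X-box is absent. Among 21 promoters of intraflagellar transport and BBSome genes the inward-facing arrangement was found in that of Ift57. This gene of the transport complex of cilia has it at chr16:49699226-49699255 on the plus strand.
Ift57: gccctgcgGTTGCCtGGTAACggtggggac

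**Figure D1:**
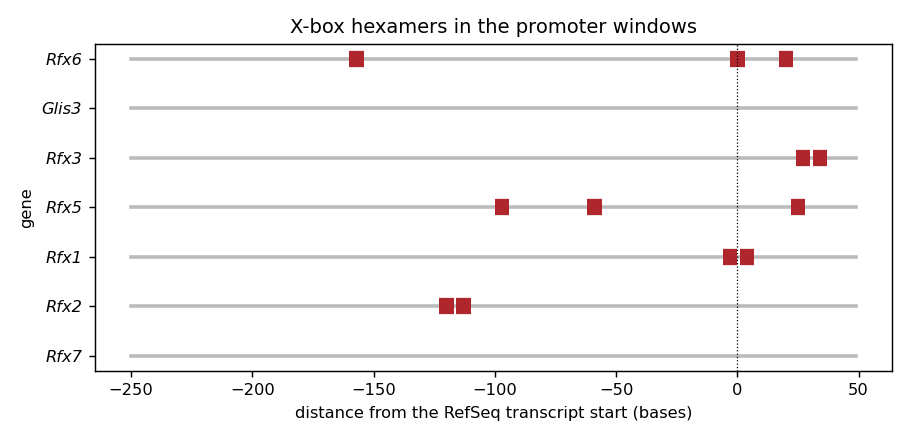
Positions of the X-box hexamers (red blocks, 6 bases each) in the 7 promoter windows of the RefSeq table, with distance from the transcript start in bases on the x axis and genes down the y axis. Adjoining blocks are seen in Rfx3, Rfx1 and Rfx2, and no block is seen in Glis3 and Rfx7.

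Library 1 held 50121771 counted reads and library 2 held 39003197, and a count of 0 allowed up to 0.0599 CPM and 0.0769 CPM, where CPM is a gene's read count scaled to a common library total. The targeted genes were counted in both libraries, with Myt1 at 77.6 and 65.4 CPM, St18 at 72.7 and 56.5 CPM and Myt1l at 44.5 and 39.0 CPM in libraries 1 and 2. These counts sum all exons, so they do not check the deletion. All 8 beta-cell markers reached 1 CPM in each library, and Ins2 stood at 103810 and 110908 CPM. Markers of other cells were present: 7 of 9 acinar markers reached 1 CPM in each library, with a sum of 98.0 CPM in library 1, against 467 in library 2, and Ptf1a had 0 and 3 reads. For 7 alpha-cell markers, 6 of them detected, the sums were 1401 and 1158 CPM, and for 5 delta-cell markers, all detected, 1660 and 1247 CPM. The delta-cell sum was mostly Sst, at 1515 and 1100 CPM, while Lepr of that list had 6.92 and 23.4 CPM. Of these 5, 3 were higher in library 1 and 1 in library 2 at an adjusted p under 0.05, beside 19.0% and 13.4% of all tested genes. For 3 PP-cell markers, all detected, the sums were 979 and 1215 CPM. Ductal markers, 5 of 6 detected, summed to 880 and 1224 CPM, led by Spp1 at 659 and 967 CPM and Krt7 at 164 and 193 CPM, and 4 of the 6 were higher in library 2 at an adjusted p under 0.05. Of 7 immune markers, with sums of 43.1 and 37.4 CPM, C1qa alone was detected, at 39.1 and 35.3 CPM. The libraries stand apart in Xist, the RNA of the inactive X chromosome, with 5.01 CPM in library 1, against 653 in library 2.

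All 8 genes were expressed, over a range from Insm1 as the highest to Rfx7 as the lowest. Values are given per library as TPM, a level scaled by gene length, and as the mean ± SD of the libraries. Insm1 had 340 TPM in library 1 and 295 TPM in library 2, a mean of 317 ± 31.5 TPM (SD, n = 2). It ranked 188th of the 55487 genes by mean TPM, above 98.7% of the genes averaging at least 1 CPM. Rfx6, the RFX factor of islet endocrine cells, had 136 and 110 TPM, a mean of 123 ± 18.6 TPM, above 95.03% of those genes. Glis3 had 46.2 and 40.7 TPM, a mean of 43.4 ± 3.87 TPM, above 81.3% of them. These 3 genes were the highest of the 8 in both libraries, and their levels did not overlap with those of any other member.

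Rfx3, Rfx5, Rfx1, Rfx2 and Rfx7 lay near the middle of the expressed genes or below it. Rfx3, known for its part in ciliogenesis and in beta-cell maturation, had 20.1 TPM in library 1 and 16.1 TPM in library 2, a mean of 18.1 ± 2.82 TPM (SD, n = 2), above 57.5% of the genes averaging at least 1 CPM. Rfx5, the subunit of the MHC class II regulatory complex, had 17.0 and 16.6 TPM, a mean of 16.8 ± 0.234 TPM, above 55.4% of them. The ranges of Rfx3 and Rfx5 overlapped between the libraries. Rfx1, a broadly expressed family member, had 10.5 and 10.2 TPM, a mean of 10.4 ± 0.218 TPM. Rfx2, known for ciliated cells and the male germ line, had 8.84 and 8.77 TPM, a mean of 8.80 ± 0.0533 TPM. Rfx7 had 7.30 and 6.29 TPM, a mean of 6.80 ± 0.712 TPM, above 31.4% of the genes averaging at least 1 CPM.

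**Figure D2:**
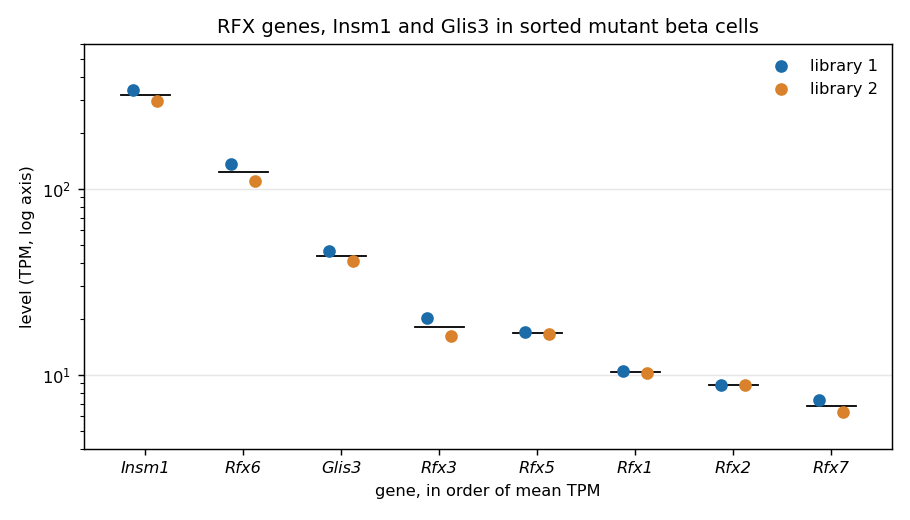
Level in TPM (log axis) of each gene in library 1 (blue) and library 2 (orange), with genes along the x axis in order of mean TPM and a black line at the mean of the 2 libraries. Insm1, Rfx6 and Glis3 stand above the other genes in both libraries, and the points of Rfx3 and Rfx5 lie at like heights.

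The order of the levels was set by length-scaled ratios of neighbours within each library, with exact binomial 95% intervals that cover counting error only. Insm1 exceeded Rfx6 2.50-fold (interval 2.44 to 2.56) in library 1 and 2.69-fold (2.61 to 2.77) in library 2. Rfx6 exceeded Glis3 2.95-fold (2.86 to 3.04) in library 1 and 2.697-fold (2.60 to 2.80) in library 2, a step of 1.28-fold without length scaling. Glis3 exceeded Rfx3 2.30-fold and 2.53-fold, a mean log2 ratio of 1.27 ± 0.10 (SD, n = 2). Each of these length-scaled steps was far larger than its spread between the libraries.

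Rfx3 and Rfx5 were not separated, with a ratio of Rfx3 over Rfx5 of 1.18 (1.12 to 1.25) in library 1 and 0.966 (0.904 to 1.03) in library 2. Rfx3 exceeded Rfx5 2.15-fold without length scaling, where the pair was separated. Rfx5 exceeded Rfx1 1.61-fold and 1.63-fold. Rfx1 exceeded Rfx2 by a small step, 1.19-fold (1.10 to 1.29) in library 1 and 1.16-fold (1.06 to 1.28) in library 2. That step was no longer separated with the longest transcript as the length, at a log2 ratio of 0.04, or without length scaling, at 0.05. Rfx2 exceeded Rfx7 1.21-fold and 1.39-fold by length-scaled level. The merged exons of Rfx7 span 15302 bases, the longest among the 8 genes, and without length scaling the log2 ratio of Rfx2 over Rfx7 turned to −0.69. By length-scaled level 6 of the 7 neighbour pairs were separated in both libraries.

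By length-scaled level, Rfx6 supplied most RFX transcripts. Without length scaling it had 198 and 162 CPM, beside Rfx3 at 80.4 and 65.1 CPM and Rfx7 at 40.5 and 35.4 CPM. The size of its share therefore depends on the length scaling. Summed over the 8 RFX genes of the mouse, the level was 200 TPM in library 1 and 168 TPM in library 2, of which Rfx6 made up 68.0% and 65.4%. Rfx3 followed with 10.04% and 9.58%, Rfx5 with 8.49% and 9.91%, Rfx1 with 5.26% and 6.08%, Rfx2 with 4.42% and 5.22% and Rfx7 with 3.65% and 3.75%. Rfx6 exceeded Rfx3, its partner in islet development, 6.77-fold (6.53 to 7.03) in library 1 and 6.83-fold (6.52 to 7.15) in library 2. The intervals of this ratio overlapped between the libraries, although both genes differed between them. Rfx4 and Rfx8, the family members outside the 8 genes, had 9 and 6 reads in library 1 against 6 and 1 reads in library 2, at most 0.180 CPM.

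The paralogues of Insm1 and Glis3 showed unequal patterns. Insm2 had 30 and 19 reads in libraries 1 and 2, or 0.599 and 0.487 CPM, so Insm1 made up 99.8% of the summed INSM level in each library. The length-scaled ratio of Insm1 over Insm2 was 548 (384 to 812) in library 1 and 592 (379 to 983) in library 2. Glis3 was accompanied by Glis2 at 30.9 and 28.0 TPM and by Glis1 at 3.54 and 2.701 TPM. Glis3 exceeded Glis2 1.49-fold (1.42 to 1.56) and 1.45-fold (1.38 to 1.54). Glis3 thus held 57.2% and 57.0% of the summed GLIS level. Glis2 shares 10.4% of its merged exons with Pam16 on the other strand, so its count is uncertain.

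Between the libraries, none of the 8 genes differed 2-fold, against 4.31% of all 20681 tested genes, and 0.835% of the 7308 genes averaging at least 20 CPM, called at an adjusted p under 0.05 and 2-fold or more. The test was an exact two-sided binomial test of a gene's reads against the library totals with Benjamini-Hochberg adjustment over all tested genes, and it compares the reads of these libraries, not conditions. At an adjusted p under 0.05 alone, 5 of the 8 genes differed, all higher in library 1, where the shares over all tested genes were 32.4% in either direction, 19.0% higher in library 1 and 13.4% higher in library 2. Among the 7308 genes averaging at least 20 CPM, as all 8 genes are, the shares were 54.2%, 30.7% and 23.5%. The 8 genes had a median log2 ratio of library 1 over library 2 of 0.18, beside 0.04 over all tested genes.

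The 5 genes were Rfx3, Rfx6, Rfx7, Insm1 and Glis3. Rfx3 had 80.4 CPM in library 1 (exact binomial interval 77.9 to 82.9), against 65.1 in library 2 (62.6 to 67.7), a ratio of 1.23 (1.17 to 1.30) and an adjusted p of 1.3e-15 in the exact binomial test. Rfx6 had 198 CPM (194 to 202) and 162 CPM (158 to 166), a ratio of 1.22 (1.19 to 1.26) and an adjusted p of 3.8e-35 in that exact test. For both genes the intervals of the libraries did not overlap. Their ratios exceeded those of 94.0% and 93.5% of the genes averaging at least 20 CPM, and they lay within the 5th to 95th percentile of the log2 ratios of those genes, −0.33 to 0.33. Insm1 had 382 CPM (377 to 388) and 336 CPM (330 to 342), a ratio of 1.14 (1.11 to 1.16). Rfx7 had 40.5 and 35.4 CPM, a ratio of 1.15 (1.07 to 1.23), and Glis3 had 148 and 132 CPM, a ratio of 1.12 (1.08 to 1.16).

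Rfx5, Rfx1 and Rfx2 did not pass the test. Rfx5 had 33.9 CPM in library 1, against 33.6 in library 2, a ratio of 1.01 (0.937 to 1.08). Rfx1 had 24.5 and 24.1 CPM, a ratio of 1.02 (0.935 to 1.11), and Rfx2 had 23.5 CPM in each library, a ratio of 0.997 (0.914 to 1.09). The intervals of these 3 genes lie below the ratios of Rfx3 and Rfx6, but they cover counting error only. The libraries differed beyond that error, so the intervals do not set these 3 genes apart from Rfx3 and Rfx6. All 8 acinar markers tested were called higher in library 2, and 4 of 6 ductal markers were higher there. Over all tested genes 4.31% were called in either direction, and 13.4% were higher in library 2 at an adjusted p under 0.05. The sums of alpha-cell and delta-cell markers were higher in library 1, while the sum of PP-cell markers was higher in library 2. Of the 8 beta-cell markers, 6 were higher in library 2 and 2 in library 1 at an adjusted p under 0.05. Their median log2 ratio was −0.11. The shares over genes averaging at least 20 CPM were 23.5% and 30.7%. The islet factors Neurod1 and Nkx2-2 had ratios of 1.16 and 1.12. The part of other cells in these ratios was not tested, and in a bulk sample fewer cells of a type and less RNA per cell cannot be told apart.

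**Figure D3:**
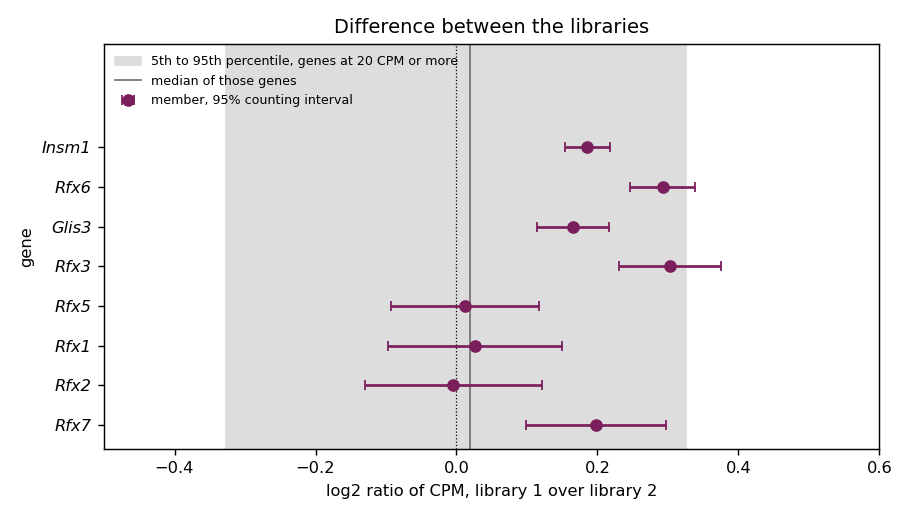
Log2 ratio of CPM of library 1 over library 2 (x axis) for each gene (y axis), with 95% counting intervals, over a grey band for the 5th to 95th percentile of the 7308 genes averaging at least 20 CPM and a grey line at their median. Rfx5, Rfx1 and Rfx2 have intervals that include 0, and the other 5 genes lie to its right.

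Set among 23 other islet transcription factors, Insm1 ranked 3rd of 31 by mean TPM, behind the insulin-gene activator Mafa, at 815 and 989 TPM, and the beta-cell factor Nkx6-1, at 586 and 628 TPM. Nearest to it in level were Pdx1, at 316 and 293 TPM, and Neurod1, at 323 and 276 TPM. Insm1 exceeded Neurod1 1.05-fold (1.03 to 1.07) in library 1 and 1.07-fold (1.04 to 1.10) in library 2. Rfx6 ranked 7th, and nearest to it were Pax6, at 118 and 104 TPM, and Isl1, at 91.4 and 83.9 TPM. Glis3 ranked 11th, nearest to the homeobox gene Mnx1 at 40.9 and 39.3 TPM. Rfx3 ranked 22nd and Rfx5 ranked 23rd. The genes Rfx1, Rfx2 and Rfx7 were each nearest to Myt1l, at 8.74 and 7.58 TPM. Among the 23 factors, 17 were higher in library 1 and 3 higher in library 2 at an adjusted p under 0.05. The shares over all tested genes were 19.0% and 13.4%, and over genes averaging at least 20 CPM 30.7% and 23.5%. Neurog3, the factor of endocrine progenitors, was called 2-fold at 21.9 and 10.1 CPM, a ratio of 2.17 (1.93 to 2.44). Nearness was measured as the distance in mean log2(TPM + 1) over the 2 libraries.

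The partners of RFX5 were all detected, with Ciita far below the rest. RFX5 acts with RFXAP and RFXANK in a complex that recruits the coactivator CIITA to MHC class II promoters, beside NF-Y and CREB. All 7 of these partner genes reached 1 CPM in each library and had a median of 12.6 TPM. The median over all tested genes was 5.64 TPM, but only 65.6% of those reached 1 CPM in both libraries. The partner median, that of Creb1, lay above 46.8% of the genes averaging at least 1 CPM. The NF-Y subunit genes Nfyc and Nfyb had 23.1 and 14.5 TPM in library 1 and 22.2 and 13.8 TPM in library 2. Rfxap had 20.4 and 20.9 TPM, and the ratio of Rfx5 over Rfxap was 0.830 (0.763 to 0.903) and 0.795 (0.724 to 0.874). Rfxank had 8.45 and 7.20 TPM, and Rfx5 exceeded it 2.01-fold and 2.31-fold. Ciita, the class II transactivator, stood at 0.398 and 0.688 TPM, with 69 and 94 reads. Its ratio of library 1 over library 2 was 0.571 (0.412 to 0.788), with an adjusted p of 0.0023 in the exact binomial test. It alone of the 7 partners passed the adjusted threshold, short of 2-fold, where 32.4% of all tested genes passed in either direction.

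MHC class II genes, the targets of that complex, were low. Of 8 genes, 5 reached 1 CPM in each library, and the median of the 8 was 3.76 TPM. Cd74, the invariant chain, was the highest at 17.7 and 11.8 TPM, followed by H2-Eb1 at 5.71 and 4.92 TPM and H2-DMa at 5.28 and 4.17 TPM. H2-Aa was the lowest detected gene at 3.04 and 2.98 TPM. Cd74 and H2-DMa were higher in library 1 at an adjusted p under 0.05, at ratios of 1.49 and 1.25, and H2-Oa had 0 and 2 reads. Over all tested genes 19.0% were higher in library 1 at that threshold. The leukocyte gene Ptprc had 0.878 and 0.487 CPM in the same libraries. Of the 6 immune markers tested, 3 were higher in library 1 and 0 in library 2 at an adjusted p under 0.05. Among them, Cd79a with 56 and 13 reads and Lyz2 with 34 and 9 reads were called 2-fold, both at low counts. The part of immune cells in the class II values was not tested.

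Genes of the primary cilium, many of them known RFX targets, were all expressed. All 25 intraflagellar transport and BBSome genes reached 1 CPM in each library, and their median was 12.5 TPM. Ift20, of the transport complex and the Golgi, was the highest at 155 and 161 TPM, followed by the dynein light intermediate chain gene Dync2li1 at 51.4 and 46.6 TPM and Ift57 at 46.4 and 45.7 TPM. Wdr19 was the lowest at 4.09 and 3.65 TPM. At an adjusted p under 0.05, 5 were higher in library 1 and 2 higher in library 2, and none differed 2-fold. The shares over all tested genes were 19.0% and 13.4%, and 4.31% were called 2-fold. Ift81 had the largest ratio of the 25, 1.66 (1.59 to 1.75).

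Motile cilium genes were lower than those of the primary cilium. Of 12 genes, 9 reached 1 CPM in each library, and the median of the 12 was 2.23 TPM. The dynein heavy chain gene Dnah9 was the highest at 16.2 and 11.8 TPM, followed by Rsph1 at 11.6 and 14.3 TPM and Dnai1 at 11.0 and 12.2 TPM, and Dnah11 was the lowest detected gene at 0.958 and 0.797 TPM. Foxj1, the regulator of motile ciliogenesis, had 8 and 19 reads, a ratio of library 1 over library 2 of 0.328 (0.124 to 0.784) that was called 2-fold, though at 0.160 and 0.487 CPM. Dnah5 had 5 and 4 reads.

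Beta-cell genes known to depend on RFX6 or RFX3 were abundant. All 10 were detected, with a median of 99.7 TPM, and led by the peptide gene Ucn3 at 443 and 546 TPM, the sulfonylurea receptor gene Abcc8 at 495 and 415 TPM and the glucose transporter gene Slc2a2 at 424 and 299 TPM. The calcium channel subunit gene Cacnb2 was the lowest at 10.5 and 9.61 TPM. In the binomial test 6 were higher in library 1 and 4 in library 2, where 54.2% of genes averaging at least 20 CPM passed in either direction. Abcc8, Slc2a2, Kcnj11 and Ffar1 were among those higher in library 1, with ratios of 1.18, 1.401, 1.27 and 1.23. Ucn3 was higher in library 2, with a ratio of 0.802. The calcium channel gene Cacna1a was called 2-fold, at 112 CPM in library 1, against 271 in library 2, a ratio of 0.412 (0.399 to 0.426).

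The corepressor partners of INSM1 were expressed at lower levels than Insm1 itself. All 10 were detected, with a median of 37.9 TPM. Kdm1a, which encodes the demethylase LSD1, was the highest at 76.3 and 65.1 TPM, followed by Hmg20b at 49.4 and 39.7 TPM and the deacetylase gene Hdac2 at 42.9 and 43.9 TPM, and Rcor3 was the lowest at 8.21 and 6.91 TPM. Insm1 exceeded Kdm1a 4.45-fold (4.33 to 4.58) in library 1 and 4.54-fold (4.39 to 4.69) in library 2. At an adjusted p under 0.05, 6 partners were higher in library 1, among them Kdm1a at a ratio of 1.16. Rcor1 was higher in library 2 at a ratio of 0.918. In either direction 32.4% of all tested genes passed, and 54.2% of genes averaging at least 20 CPM.

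Partners and targets of GLIS3 spanned the full range of levels. Of 10 genes, 9 were detected. The insulin genes were the highest, with Ins2 at 217983 and 230177 TPM and Ins1 at 149022 and 136710 TPM, followed by Mafa at 815 and 989 TPM. The cell-cycle gene Ccnd2 had 286 and 291 TPM. Among the proteins that bind or modify GLIS3, the ubiquitin ligase genes Nedd4 and Itch had 149 and 29.7 TPM in library 1 and 137 and 29.5 TPM in library 2. The Hedgehog pathway inhibitor gene Sufu was the lowest detected gene at 5.15 and 4.28 TPM, and the coactivator gene Wwtr1 had 30 and 12 reads. In the binomial test 5 were higher in library 1 and 3 higher in library 2, and none was called 2-fold. In either direction 32.4% of all tested genes passed, and 54.2% of genes averaging at least 20 CPM. Of all tested genes 4.31% were called 2-fold.

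**Figure D4:**
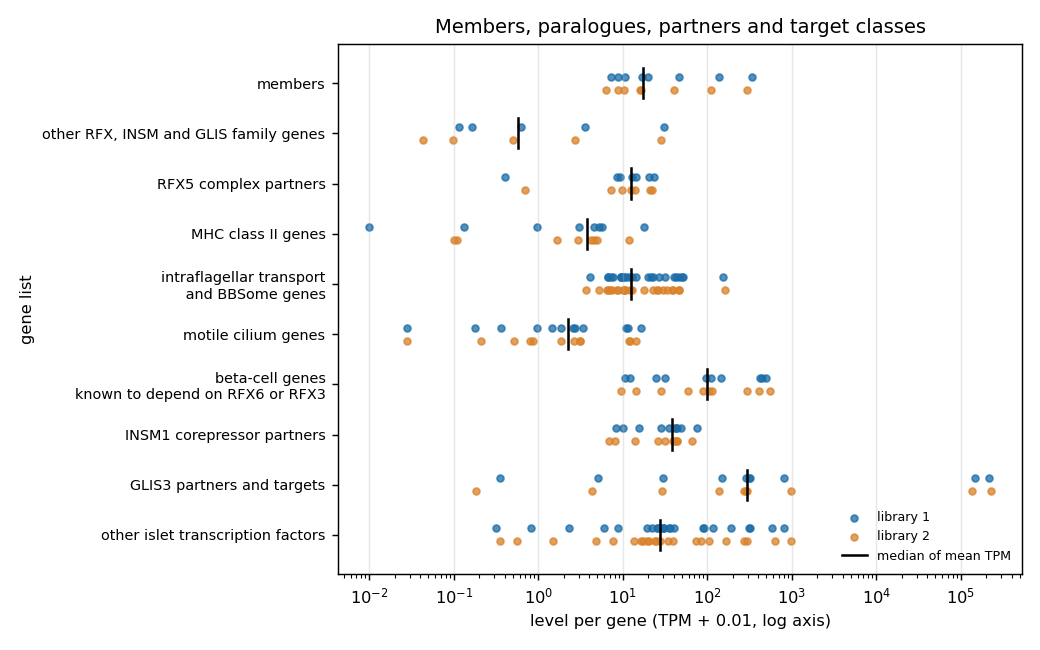
Level per gene (TPM + 0.01, log axis) of the 8 genes, their paralogues, partners, target classes and other islet transcription factors (rows), with library 1 in blue above library 2 in orange and a black line at the median of the mean TPM. The medians run from 0.559 TPM for the paralogues to 294 TPM for the partners and targets of GLIS3.

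The gene models limit some of these counts. Insm1 (ENSMUSG00000068154) is a single exon of 3100 bases, spanning 146221921 to 146225020 of chromosome 2 in GRCm38 (GENCODE M21). Rfx6 (ENSMUSG00000019900) occupies the plus strand of chromosome 10 between 51677756 and 51730432, in 20 merged exons. Rfx3 (ENSMUSG00000040929), from 27761721 to 28011166, and Glis3 (ENSMUSG00000052942), from 28258851 to 28680077, both lie on the minus strand of chromosome 19. Rfx1 (ENSMUSG00000031706) occupies 84066834 to 84096992 of chromosome 8, Rfx2 (ENSMUSG00000024206) 56775897 to 56831013 of chromosome 17 and Rfx7 (ENSMUSG00000037674) 72532240 to 72622937 of chromosome 9. Rfx5 (ENSMUSG00000005774), on chromosome 3 from 94954075 to 94961561, shares 26.8% of its merged exon bases with the antisense gene B230398E01Rik. That gene had 4 and 1 reads, the strand setting of the counting is not given in the sources used here, and the level of Rfx5 is therefore uncertain. Rfx7 shares 5.94% of its 50-base words with other genes, mainly antisense ones. Rfx5 shares 22.3% of its words with that antisense gene, and the other 6 members share under 1%.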

How the data were processed

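Per the labels' protocols, islets were dissociated with 0.25% trypsin at 37 °C, cells were sorted, and total RNA was made into libraries with TruSeq DNA kits of Illumina. The authors deposited 1 table per library with raw counts, CPM and TPM, per the file headers. The tools cutadapt 2.10, STAR 2.7.8a and featureCounts 2.0.2 and the build GRCm38.p6 are listed in the submitters' processing notes. Their settings, strand included, were not stated in the sources used here. Dividing a deposited count by its library total gave the deposited CPM. The length implied by the deposited TPM lay within 1% of the merged exons of GENCODE M21 for 98.3% of 16229 genes.

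The members and gene lists were chosen with earlier results of these data known. Named genes were the 8 members, their paralogues, the 3 highest and the lowest detected genes of each list, and genes called between the libraries. Other genes named were chosen after their values were seen. A few genes that the rule names are not reported here. Genes with 10 or more summed reads were tested with an exact binomial test and Benjamini-Hochberg adjustment, which was tested on simulated data. The simulated counts held sampling noise only, so they do not measure the error of the test on these libraries. The fold for a call was computed with 0.5 read added. With no other group, edgeR's quasi-likelihood test could not be run. The libraries differed beyond sampling noise, with a chi-square of 28.6 per degree of freedom over 20681 genes. Intervals (95%, Clopper-Pearson) and the floor of 3 reads cover counting error only, since no label names molecular identifiers to tell molecules from copies. Alternatives were edgeR 4.0.16 and DESeq2 1.42.0 scaling, lengths, filters and single libraries. Python 3.11.15 and scipy 1.17.1 were used.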

Additional observations from a re-analysis of the deposited data

How the results depend on the processing

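No member was called 2-fold under any scaling, filter or fold tried, and the 5 members higher in library 1 kept their direction and side of the threshold under the 3 other scalings. With edgeR's TMM and DESeq2's size factors, the log2 ratio of Rfx5 turned to −0.031 and −0.032 and that of Rfx1 to −0.017 and −0.018, and neither gene passed the test under any scaling. A fold of 1.5 in place of 2 gave 1664 called genes in place of 892, by its construction. Without length scaling the log2 ratio of Rfx2 over Rfx7 turned to −0.69, that of Rfx3 over Rfx5 was 1.10, and that of Rfx6 over Glis3 was 0.35, against 1.495 with it. The log2 ratio of Rfx3 over Rfx5 was 0.24 in library 1 alone and −0.05 in library 2 alone. Detection at 5 CPM in place of 1 left 1 of 2 detected paralogues and 2 of 5 MHC class II genes. Of the alternative values, 105 were labelled unchanged, against 5 reversed, 4 moved, 2 stronger and 2 weaker. For ratios, unchanged meant the same direction and the same call. For counts of genes or pairs it meant a change of at most 1.5-fold. For a member's mean CPM with 1 library left out, the label was fixed in advance. With 2 libraries, each always lies within 1 SD of their mean. No paired analysis was possible because both libraries belong to 1 group. With 2 libraries an SD is imprecise, and genes with few reads had wide intervals, such as Foxj1.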
